A study of Mus musculus with 10 samples.

Results

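The immunoglobulin chain transcripts of the mouse lung are described here across 10 RNA libraries in 3 groups. Genes were chosen by name, as constant, variable (V) or joining (J) genes of the heavy chain, kappa or lambda locus, with at least 20 counts summed over the libraries. That left 159 of the 371 genes with such names, out of 54532 genes in the count table. Beyond the name, the rule thus used only the summed counts and compared no groups. A gene could still pass the minimum only through the group or library in which it is high. The members were also chosen with earlier results of these data known, so the selection was not blind to group. Just inside the minimum lay Ighv1-4 and Igkv4-70 with 21 counts each and Ighv11-2 with 22, and just outside it Ighv1-84 with 19 and Ighv1-61 with 18. The IgE gene Ighe fell outside.

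All mice were wild type and all RNA was total RNA of whole lung. The LPS+TSLP group (4 libraries) received bacterial lipopolysaccharide (LPS) after recombinant TSLP (thymic stromal lymphopoietin, an epithelial cytokine), which the series title calls a pretreatment. The LPS group (3 libraries) received LPS, and the Vehicle group (3 libraries) the vehicle. Strain, sex, age, doses, routes and times are not given in the labels used here. Nor do the labels say whether each library came from its own animal, so p-values measure the spread between these libraries only. In whole tissue, fewer cells of a type and less RNA per cell cannot be told apart.

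An antibody is built of heavy and light chains, each with a V region that binds antigen and a constant region. The variable part is assembled in each B cell from 1 V gene and short segments, and a B cell clone and the plasma cells that descend from it share that V gene. The heavy constant gene sets the isotype: naive B cells carry IgM and IgD, and plasma cells at mucosal surfaces, the lung included, secrete mostly IgA. The heavy chain locus lies on chromosome 12, the kappa locus on chromosome 6 and the lambda locus on chromosome 16. The 159 genes comprised 69 heavy (Ighv), 71 kappa (Igkv) and 3 lambda (Iglv) V genes, 5 J genes, 7 heavy chain constant genes, the kappa constant gene Igkc, and 3 lambda constant genes.

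V genes are close copies of each other, so a read can match several of them, and this bears on every count of a single V gene. Of all stretches of 50 bases in a V gene's annotated transcript, a median of 22.8% also occur in another annotated gene (range 0 to 92.5% over 143 V genes), and 16 of the 143 share more than 50% of theirs. For Igha, Ighm, Ighd and Igkc the share was 0%, and for Iglc3 22.3%. The sequences are of the V genes that the results turn on, each with a close copy, and cover the last 300 bases of the coding sequence on the gene's own strand, from the GENCODE M21 annotation of GRCm38. Capitals mark positions where the members of a pair differ. The first is Ighv1-26, the V gene whose fall after LPS held under every setting tried (chr12:114788372-114788805, minus strand), with Ighv1-18 (chr12:114682632-114683065, minus strand).
Ighv1-26: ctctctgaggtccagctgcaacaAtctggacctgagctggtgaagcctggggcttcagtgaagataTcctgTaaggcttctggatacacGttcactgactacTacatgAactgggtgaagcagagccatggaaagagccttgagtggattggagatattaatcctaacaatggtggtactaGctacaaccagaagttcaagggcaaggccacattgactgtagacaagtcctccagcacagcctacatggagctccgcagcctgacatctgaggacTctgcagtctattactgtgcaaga
Ighv1-18: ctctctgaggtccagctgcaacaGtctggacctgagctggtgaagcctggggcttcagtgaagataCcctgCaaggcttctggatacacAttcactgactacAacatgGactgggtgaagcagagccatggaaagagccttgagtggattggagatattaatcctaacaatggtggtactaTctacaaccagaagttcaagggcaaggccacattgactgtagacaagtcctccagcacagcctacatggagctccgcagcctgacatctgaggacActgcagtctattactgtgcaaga
They are 96.9% identical over 351 coding bases and differ at 8 of the printed ones. The second is Ighv9-3, the most counted heavy V gene of Vehicle replicate 1 (chr12:114140692-114141122, minus strand), with Ighv9-2 (chr12:114109001-114109430, minus strand).
Ighv9-3: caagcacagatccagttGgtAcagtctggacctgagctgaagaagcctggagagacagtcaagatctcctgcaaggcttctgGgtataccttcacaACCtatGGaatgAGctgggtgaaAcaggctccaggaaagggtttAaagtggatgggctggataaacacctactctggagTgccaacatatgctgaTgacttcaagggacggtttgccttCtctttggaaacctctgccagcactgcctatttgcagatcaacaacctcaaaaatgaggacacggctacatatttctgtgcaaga
Ighv9-2: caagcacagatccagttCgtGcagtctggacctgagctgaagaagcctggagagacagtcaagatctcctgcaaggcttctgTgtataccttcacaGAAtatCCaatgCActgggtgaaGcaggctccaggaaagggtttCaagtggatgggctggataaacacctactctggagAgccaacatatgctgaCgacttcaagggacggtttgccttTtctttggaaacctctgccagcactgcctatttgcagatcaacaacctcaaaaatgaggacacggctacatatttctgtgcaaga
These are 94.3% identical, with 15 differences printed. The third is Igkv1-117, the kappa V gene with the most counts in 3 libraries (chr6:68121046-68121827, plus strand), with Igkv1-110 (chr6:68270485-68271267, plus strand).
Igkv1-117: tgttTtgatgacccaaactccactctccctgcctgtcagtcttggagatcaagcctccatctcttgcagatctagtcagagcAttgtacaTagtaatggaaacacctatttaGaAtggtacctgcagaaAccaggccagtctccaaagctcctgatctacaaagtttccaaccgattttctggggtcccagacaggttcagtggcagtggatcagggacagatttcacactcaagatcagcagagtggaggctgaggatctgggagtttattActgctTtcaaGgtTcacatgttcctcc
Igkv1-110: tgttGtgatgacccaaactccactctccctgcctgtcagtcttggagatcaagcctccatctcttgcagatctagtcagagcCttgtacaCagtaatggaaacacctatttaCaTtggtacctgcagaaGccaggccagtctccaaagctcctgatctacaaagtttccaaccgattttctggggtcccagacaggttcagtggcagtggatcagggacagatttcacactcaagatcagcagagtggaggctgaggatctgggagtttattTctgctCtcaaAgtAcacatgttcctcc
They are 97.2% identical, and all 10 differing positions lie in the printed part. The last pair, Iglv1 (chr16:19085017-19085500, minus strand) and Iglv2 (chr16:19260401-19260859, minus strand), holds most of the lambda V counts and is 96.9% identical, with 8 differences printed.
Iglv1: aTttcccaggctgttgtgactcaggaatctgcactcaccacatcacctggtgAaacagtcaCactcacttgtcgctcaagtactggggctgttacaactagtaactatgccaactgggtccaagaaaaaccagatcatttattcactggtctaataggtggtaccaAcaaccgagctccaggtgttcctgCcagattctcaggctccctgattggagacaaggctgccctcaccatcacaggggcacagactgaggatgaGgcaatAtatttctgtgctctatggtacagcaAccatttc
Iglv2: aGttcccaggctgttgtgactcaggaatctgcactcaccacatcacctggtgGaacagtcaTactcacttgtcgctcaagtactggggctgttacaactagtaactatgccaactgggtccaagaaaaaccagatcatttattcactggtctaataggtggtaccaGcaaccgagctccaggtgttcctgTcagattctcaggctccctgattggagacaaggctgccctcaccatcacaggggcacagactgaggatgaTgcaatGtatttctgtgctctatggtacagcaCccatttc

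The libraries held 16175172 to 18374461 counts. The share of mitochondrial genes was 13.1, 6.5, 5.35 and 2% in the LPS+TSLP libraries, between 1.2 and 2.58% in the LPS libraries and between 1.11 and 1.27% in the Vehicle libraries. LPS+TSLP replicate 1 stands apart: it had the most mitochondrial RNA, and 93 of the 159 genes were at 0 in it, against 12 to 35 in the other LPS+TSLP libraries, 11 to 38 in LPS and 4 to 8 in Vehicle. LPS replicate 1 stands apart in its sex-linked genes, with Xist at 190 CPM and Ddx3y at 0, while Xist was at most 0.455 CPM in the other 9 libraries. Ddx3y, a Y-linked gene, was 57.7 to 96.1 CPM in LPS+TSLP, 70.6 and 89.3 CPM in LPS replicates 2 and 3, and 6.15 to 11.9 CPM in Vehicle. Ddx3y was thus lower in every Vehicle library than in every treated library except LPS replicate 1, for a reason the labels do not give. Leaving out single libraries cannot take out a difference that all Vehicle libraries share, so it cannot be told apart from treatment in comparisons against Vehicle. The part of these differences in the results below was not tested beyond leaving out libraries.

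Immunoglobulin transcripts made up less of the lung RNA in the treated groups on average. V genes were below all Vehicle libraries in every treated library, and constant genes in every one except LPS+TSLP replicate 3. The sum of all immunoglobulin transcripts was 242, 589, 1320 and 606 counts per 1000000 counts of the library (CPM) in LPS+TSLP replicates 1 to 4, 916, 930 and 627 CPM in LPS, and 1335, 1275 and 1048 CPM in Vehicle. The means were 689 ± 453 (SD, n = 4), 824 ± 171 and 1220 ± 151 CPM (SD, n = 3 each). LPS+TSLP replicate 3 lay within the Vehicle range, and every other treated library lay below all Vehicle libraries. In absolute reads these sums rest on 3921 counts in the poorest library (LPS+TSLP replicate 1) and up to 23771 in the richest (LPS+TSLP replicate 3). Constant genes summed to 226, 528, 1159 and 511 CPM in LPS+TSLP, 836, 749 and 525 CPM in LPS, and 1043, 1026 and 850 CPM in Vehicle. V genes summed to 15.3, 59.3, 159 and 93.7 CPM in LPS+TSLP, 79.1, 179 and 102 CPM in LPS, and 292, 248 and 197 CPM in Vehicle, with no treated library reaching a Vehicle one.

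Igha, the IgA heavy chain (chr12:113254830-113260236) and the gene of the set with the most counts, had 20.5, 198, 474 and 221 CPM in LPS+TSLP, 443, 297 and 209 CPM in LPS, and 443, 384 and 414 CPM in Vehicle. The treated libraries scattered from far below to above the tight Vehicle range, and the log2 fold changes were −0.84 (SE 0.66, adjusted p = 0.407) for LPS+TSLP against Vehicle and −0.29 (SE 0.72, adjusted p = 0.790) for LPS against Vehicle. All fold changes and adjusted p-values here are from edgeR's quasi-likelihood test in 1 fit of the 3 groups, with Benjamini-Hochberg adjustment over the 17139 genes tested, and a gene is called at an adjusted p under 0.05. For LPS+TSLP against LPS the value was −0.54 (SE 0.66, adjusted p = 0.864), and 0.22 without LPS+TSLP replicate 1 and LPS replicate 1 together.

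Ighm, the IgM heavy chain (chr12:113418558-113422730), was the only constant gene called in the main edgeR fit, and only in LPS against Vehicle. It had 111, 78.7, 141 and 76.1 CPM in LPS+TSLP, 54.2, 91.1 and 58.3 CPM in LPS, and 189, 231 and 93 CPM in Vehicle. Every LPS library lay below every Vehicle library, though LPS replicate 2 and Vehicle replicate 3 nearly met, and the LPS+TSLP libraries overlapped both groups. The log2 fold change for LPS against Vehicle was −1.27 (SE 0.35, adjusted p = 0.0248). The call was lost with each library's GC trend removed and without LPS replicate 1 or 3, without Vehicle replicate 1 or 2, or without LPS replicate 1 together with LPS+TSLP replicate 1, and the log2 value was negative in all 22 alternatives. LPS+TSLP against Vehicle gave −0.72 (SE 0.32, adjusted p = 0.149), and LPS+TSLP against LPS 0.56 (SE 0.33, adjusted p = 0.709). The former was called in 1 of 22 alternatives. In LPS+TSLP against Vehicle all 7 heavy chain constant genes had log2 values below 0, from −1.31 (Ighg3) to −0.14 (Ighg1), with 0 called.

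Ighd, the IgD heavy chain made from the same primary transcript as IgM, had 31.3, 28.2, 56.4 and 32.9 CPM in LPS+TSLP, 28.7, 40.5 and 20.7 CPM in LPS, and 51.9, 52.8 and 30.5 CPM in Vehicle, with no call in any comparison. Per 100 Ighm counts there were 28.2, 35.9, 40 and 43.2 Ighd counts in LPS+TSLP, 52.9, 44.4 and 35.4 in LPS, and 27.4, 22.9 and 32.8 in Vehicle. The ratio was therefore higher in all LPS libraries than in all Vehicle libraries, while LPS+TSLP replicate 1 lay within the Vehicle range.

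The IgG genes were lower counted and more uneven. Ighg2b had 0.556, 12, 31.4 and 9.61 CPM in LPS+TSLP, 11, 18.6 and 17.8 CPM in LPS, and 38.7, 26.7 and 28.8 CPM in Vehicle. LPS thus lay wholly below Vehicle but without a call (log2 −0.93, SE 0.80, adjusted p = 0.410), though 1 of 22 alternatives gave one. Ighg2c had 1.3, 7.18, 14.2 and 5.05 CPM in LPS+TSLP, 7, 13.4 and 38.2 CPM in LPS, and 5.88, 21 and 14.3 CPM in Vehicle. LPS replicate 3 was the highest of all libraries for Ighg2c, and without it the LPS against Vehicle value of 0.56 (SE 0.75, adjusted p = 0.609) turned to −0.32. Ighg1 ranged from 0.433 to 7.5 CPM in LPS+TSLP, 0.672 to 8.36 CPM in LPS and 2.34 to 4.08 CPM in Vehicle, and Ighg3 stayed at or below 2.34 CPM in every library.

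Igkc (chr6:70726435-70726966), the kappa constant gene carried by most mouse antibodies, had 49, 180, 390 and 150 CPM in LPS+TSLP, 278, 257 and 160 CPM in LPS, and 280, 277 and 254 CPM in Vehicle. Like Igha it was tight in Vehicle and spread in the treated groups, with no call (LPS+TSLP against Vehicle log2 −0.47, SE 0.49, adjusted p = 0.536, and LPS against Vehicle −0.14, SE 0.53, adjusted p = 0.869). The lambda constant genes Iglc1, Iglc2 and Iglc3 ranged over 1.3 to 23.4 CPM in LPS+TSLP, 1.11 to 11.8 CPM in LPS and 1.76 to 17 CPM in Vehicle, again with no call.

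**Figure D1:**
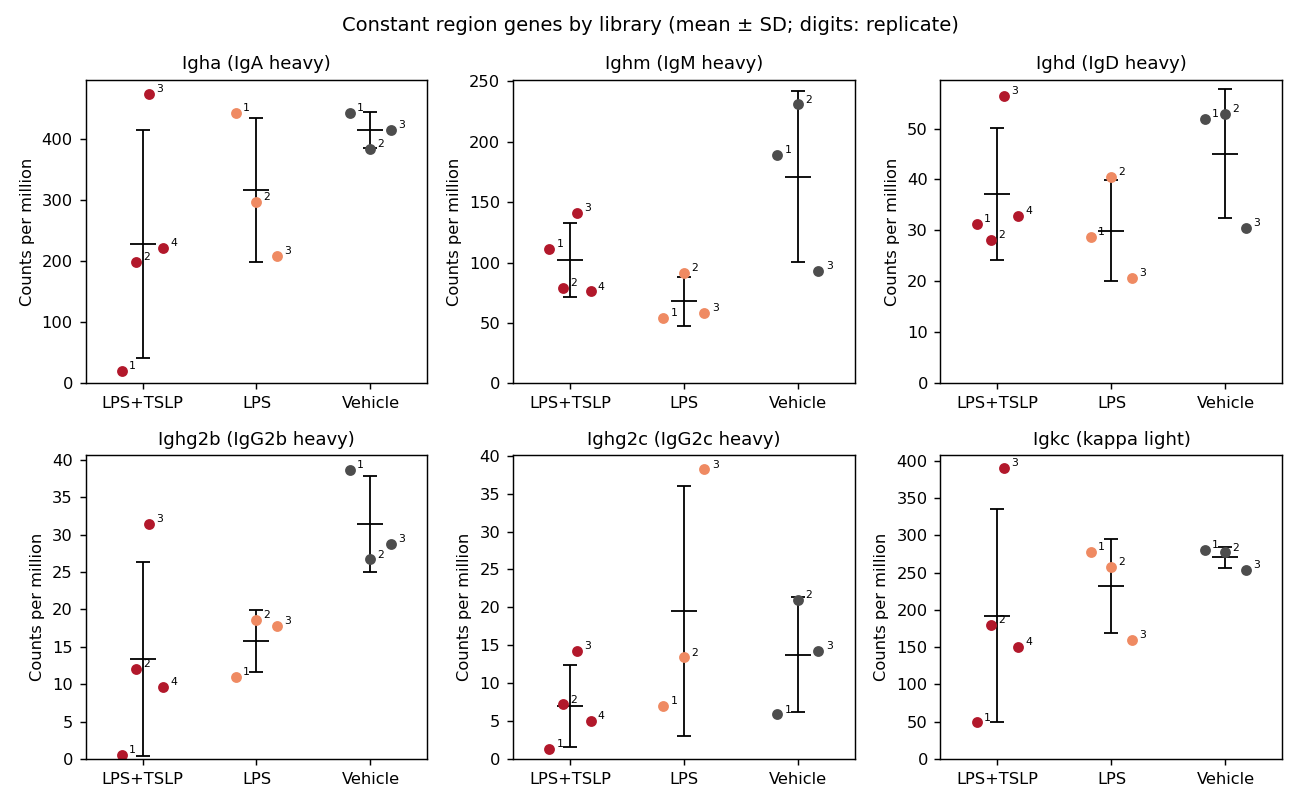
CPM of 6 constant region genes in each library, with groups along the horizontal axis, points for libraries (digits give the replicate) and black lines for mean ± SD. Igha and Igkc are tight in Vehicle and spread in LPS+TSLP, where replicate 1 has 20.5 CPM of Igha but 111 CPM of Ighm.

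Among heavy chain constant counts, IgA led in 9 of the 10 libraries, also per kilobase of annotated exon. Igha took 12.4, 60.4, 65.4 and 63.8% in LPS+TSLP, 81.3, 63.8 and 59.1% in LPS, and 60.4, 53.3 and 70.8% in Vehicle. The exception was LPS+TSLP replicate 1, where the share was 12.4% (95% exact binomial interval 11.1 to 13.7%) and Ighm took 67.1% (65.3 to 68.9%). Per kilobase these shares were 9.07 and 69.7%. The intervals cover counting error only. Ighm shares in the other LPS+TSLP libraries were 24.1, 19.4 and 22%, against 9.94, 19.6 and 16.5% in LPS, and 25.8, 32 and 15.9% in Vehicle. With that library the LPS+TSLP mean of the Igha share was 50.5 ± 25.5% (SD, n = 4), against 68.1 ± 11.7% in LPS and 61.5 ± 8.76% in Vehicle (SD, n = 3 each), and without it 63.2%.

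In LPS+TSLP replicate 1 the IgA partner Jchain was also low, while other plasma cell and B cell genes were high or low. Jchain, which joins IgA and IgM into polymers, had 6.86 CPM there, against 26.1 to 68.9 CPM in the other LPS+TSLP libraries, 51.9 to 89.5 CPM in LPS and 66.1 to 81.4 CPM in Vehicle. Cd79a, a chain of the B cell receptor, had 30.6 CPM there and 23.5 to 45.1 CPM in the other LPS+TSLP libraries, 11.4 to 31.2 CPM in LPS and 21.6 to 50 CPM in Vehicle. The 24 B cell genes summed to 430 CPM in replicate 1, and to 338, 556 and 369 CPM in the other LPS+TSLP libraries, but Fcer2a (12.6 CPM, against 29.4 to 51 CPM), Bank1, Ms4a1 and Ccr6 were lowest of the group there. Of the plasma cell list, Pim2 (35.5 CPM, against 11.5 to 18.4 CPM), Slamf7 (34.7 CPM, against 8.69 to 16.9 CPM) and Tent5c (62.4 CPM, against 20.3 to 36.1 CPM) were highest of the group there. The 22 genes of the plasma cell list summed to 2059 CPM in replicate 1, and to 1654, 1862 and 2019 CPM in the other LPS+TSLP libraries. The single genes named here were picked after their values were seen. The rest of both lists was not counted by rank, so the named genes do not stand for their lists. In the plot of isotype shares it is the one library whose largest band is Ighm.

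IgG genes together took 1.61, 6.9, 7.39 and 4.69% of heavy chain constant counts in LPS+TSLP, 3.47, 7.93 and 18.6% in LPS, and 6.67, 7.27 and 8.15% in Vehicle. LPS replicate 3 had the highest share, and Ighg2c alone made 10.8% there. Within IgG, Ighg2c held 58% (55.1 to 60.8%) in that library, 36.4 and 37% in the other LPS libraries, and 12 to 40.1% in Vehicle. In LPS+TSLP it held 26.5 to 31.8% in replicates 2 to 4 and 48.8% (33.3 to 64.5%, 21 of 43 counts) in replicate 1.

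**Figure D2:**
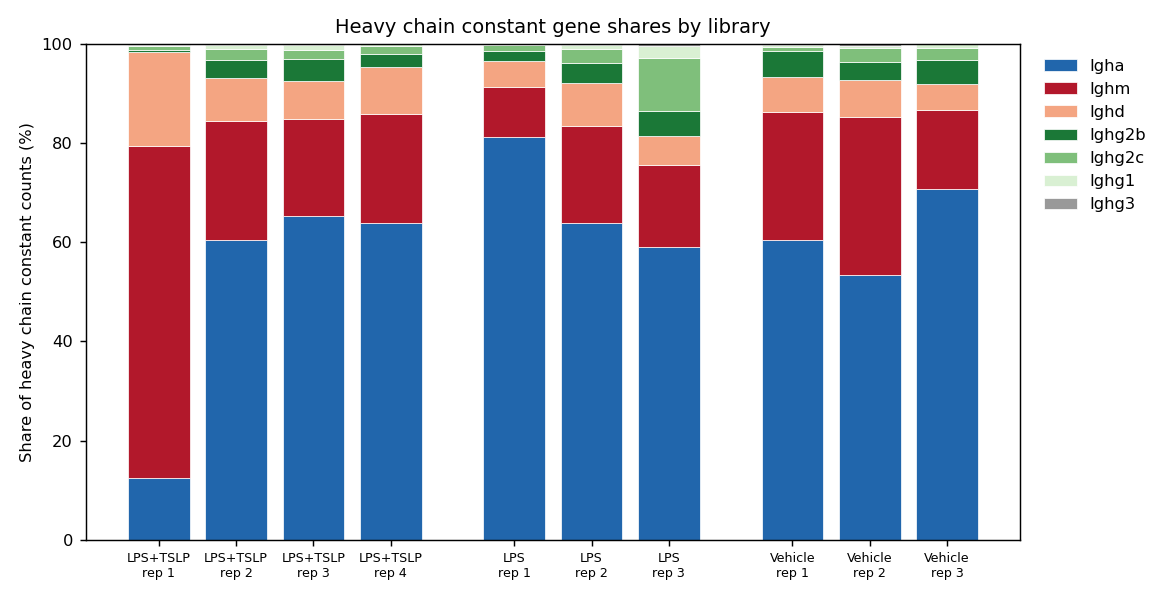
Share of each heavy chain constant gene among heavy chain constant counts, in percent, 1 bar per library. Igha is the largest band in every library except LPS+TSLP replicate 1, where Ighm holds 67.1%, and LPS replicate 3 has the widest Ighg2c band (10.8%).

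Lambda chains were a small part of the light chain. Iglc1 to Iglc3 made 19.5, 10.4, 10 and 9.12% of light chain constant counts in LPS+TSLP, 4.64, 9.4 and 6.05% in LPS, and 9.88, 9.83 and 3.97% in Vehicle. Replicate 1 of LPS+TSLP was again highest (95% exact binomial interval 17.1 to 22.1%), and without it the LPS+TSLP mean was 9.84% in place of 12.3 ± 4.85% (SD, n = 4). All groups overlapped once that library was set aside. Iglv1, the main lambda V gene, had 1.67, 4.44, 13.9 and 3.89 CPM in LPS+TSLP, 2.8, 9.62 and 2.71 CPM in LPS, and 7.48, 18 and 4.2 CPM in Vehicle.

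V gene counts were lower relative to constant gene counts in treated lungs than in Vehicle lungs. For each 100 heavy chain constant counts there were 2.73, 4.01, 6.09 and 10.7 Ighv counts in LPS+TSLP, 4.17, 12.4 and 10.9 in LPS, and 17.2, 14.7 and 14 in Vehicle. The means were 5.89 ± 3.52 (SD, n = 4), 9.17 ± 4.40 and 15.3 ± 1.66 (SD, n = 3 each), and no treated library reached a Vehicle one. For each 100 Igkc counts there were 17.2, 21.6, 24.8 and 33.6 Igkv counts in LPS+TSLP, 19, 41.6 and 36.8 in LPS, and 53.7, 43.6 and 43.2 in Vehicle. Again all 7 treated libraries lay below all Vehicle libraries, LPS replicate 2 by a small margin. In the lambda locus there were 20.3, 34.9, 42.1 and 41.7 Iglv counts per 100 Iglc counts in LPS+TSLP, 25.7, 52.2 and 43 in LPS, and 50.7, 69.9 and 56.8 in Vehicle, so LPS overlapped Vehicle there.

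The lowest ratio of LPS was in replicate 1 in all 3 loci, and the lowest of LPS+TSLP also in replicate 1. Without both, the heavy chain means were 6.93 in LPS+TSLP and 11.7 in LPS, and the kappa means 26.7 in LPS+TSLP and 39.2 in LPS, still below each Vehicle library. With each library's trend with GC content removed, the heavy chain ratio was 2.73 to 10.5 in LPS+TSLP, 4.11 to 12.4 in LPS and 14.3 to 18.3 in Vehicle. Beside these ratios, mitochondrial shares ran higher in LPS+TSLP than in Vehicle, and their part in the ratios was not tested. Treated libraries share the same Vehicle libraries as their control, so the 2 treated groups are not independent of each other here.

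**Figure D3:**
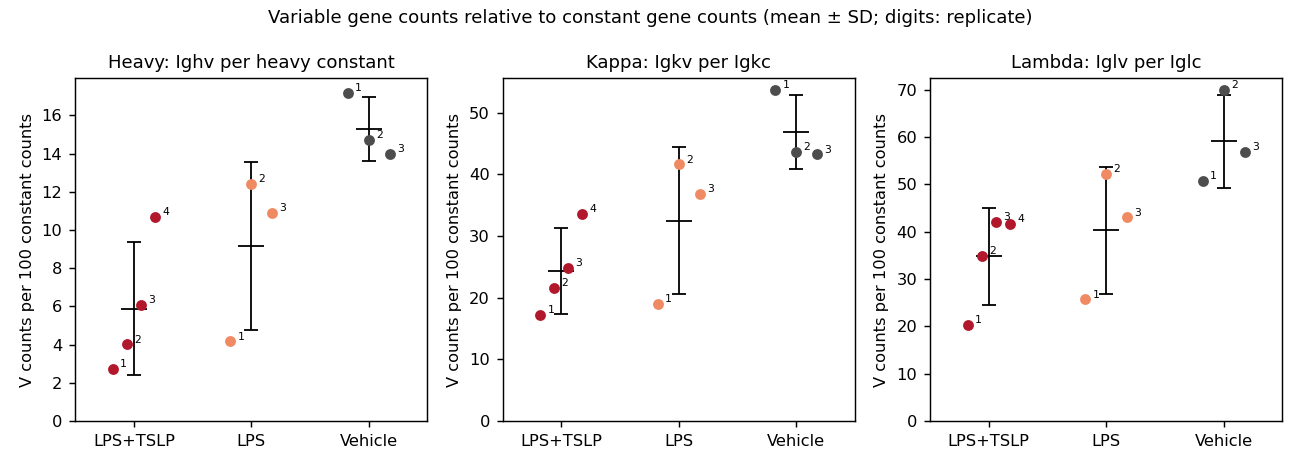
V gene counts per 100 constant gene counts in each library for the heavy, kappa and lambda loci, with points for libraries (digits give the replicate) and black lines for mean ± SD. Every LPS+TSLP and LPS point lies below every Vehicle point in the heavy and kappa panels, and LPS overlaps Vehicle in the lambda panel.

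Tested gene by gene in the main edgeR fit, every immunoglobulin gene called against Vehicle was lower after treatment. All of them but Ighm were V genes. With no filter beyond 20 summed counts, 1 gene was called higher in LPS against Vehicle. Of the 159 genes, 106 had enough counts to be tested: 43 Ighv, 49 Igkv, 3 Iglv and the 11 constant genes, but none of the 5 J genes. A gene that passed this minimum only through the group in which it is high had to differ, so the counts below describe these genes and are not evidence by themselves. The 53 untested genes summed to 657 counts in LPS+TSLP (9.7 CPM), 661 in LPS (12.4 CPM) and 2100 in Vehicle (39.2 CPM).

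In LPS+TSLP against Vehicle 13 of the 106 were lower (12.3%) and 0 higher, and 93 did not pass. Of all genes tested 14.2% were called in that comparison and 5.35% were called lower. The median log2 fold change of the 106 was −1.30, against 0.03 over all genes, and 95 were below 0, as were 48.4% of all genes. Every LPS+TSLP library lay below every Vehicle library in 28 of them (26.4%, against 18.3% of all genes). In LPS against Vehicle 6 were lower (5.66%) and 0 higher, and 100 did not pass, where 24.9% of all genes were called and 10.7% called lower, so the share called lower was below that of the whole table. Their median was −0.79, against 0.01 over all genes, with 82 below 0 (49.6% of all genes were), and every LPS library lay below every Vehicle library in 22 (20.8%, against 28% of all genes).

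Between LPS+TSLP and LPS edgeR called 0 of the 106, and 0% of all genes. At an unadjusted p under 0.05 there were 7 lower and 0 higher, where 8.1% of all genes had such a p and 3.69% had it with a lower level. Of the same genes, limma-voom called 0, and DESeq2's Wald test called 1, Igkv8-21. Of all genes DESeq2's Wald test called 0.204%. Every LPS+TSLP library lay below every LPS library in 4 members, against 3.04% of all genes. The median log2 fold change was −0.48 with 71 below 0, where 47.8% of all genes were, and it was −0.17 without LPS+TSLP replicate 1, −1.03 without LPS+TSLP replicate 3 and 0.02 without LPS replicate 2. A direction between the 2 treated groups therefore depends on single libraries.

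Ighv1-26 is a heavy chain V gene of the large Ighv1 family. It had 0.68, 1.05, 2.33 and 1.58 CPM in LPS+TSLP, 1.51, 1.02 and 1.72 CPM in LPS, and 4.23, 9.09 and 7.2 CPM in Vehicle. All 7 treated libraries lay below all Vehicle libraries. It fell in LPS+TSLP (log2 −2.24, SE 0.44, adjusted p = 0.0101) and in LPS (log2 −2.19, SE 0.48, adjusted p = 0.0105), both against Vehicle. The LPS call held under all 22 alternatives and the LPS+TSLP call under all but 1, the fit without Vehicle replicate 2. Other genes hold 49% of its 50-base stretches, and its close copy Ighv1-18 had 0.117 to 1.39 CPM in LPS+TSLP, 0.609 to 1.08 CPM in LPS and 1.71 to 3.7 CPM in Vehicle, with no call.

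Igkv4-59, of the kappa V family with the most genes here (18 Igkv4 genes), had 0, 0.175, 0.611 and 0.547 CPM in LPS+TSLP, 0.168, 0.854 and 0.111 CPM in LPS, and 4.97, 3.16 and 3.23 CPM in Vehicle. The log2 fold changes were −3.44 (SE 0.83, adjusted p = 0.0225) for LPS+TSLP and −3.25 (SE 0.91, adjusted p = 0.0256) for LPS, both against Vehicle. The Vehicle libraries were alike for this gene, but 74.3% of its 50-base stretches occur in other genes, so its count is uncertain. Igkv8-27, of which 8.36% is shared, had 0, 0.584, 0.722 and 1.22 CPM in LPS+TSLP, 1.46, 0.455 and 0.886 CPM in LPS, and 15.8, 4.79 and 3.18 CPM in Vehicle. It was lower in LPS+TSLP (log2 −3.61, SE 0.85, adjusted p = 0.0200) and in LPS (−2.99, SE 0.91, adjusted p = 0.0348), with Vehicle replicate 1 far above the other Vehicle libraries.

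Ighv3-8, nearly unique in sequence (0.29% shared), had 0, 0, 0.222 and 0.122 CPM in LPS+TSLP, 0.056, 0.512 and 0.332 CPM in LPS, and 9.71, 0.653 and 2.78 CPM in Vehicle. Its log2 fold changes were −5.50 (SE 1.10, adjusted p = 0.0113) for LPS+TSLP and −3.79 (SE 1.08, adjusted p = 0.0271) for LPS. Ighv2-3 had at most 0.243 CPM in LPS+TSLP and 0.332 CPM in LPS, against 1.37, 2.12 and 1.13 CPM in Vehicle, with log2 fold changes of −3.99 in LPS+TSLP (SE 1.07, adjusted p = 0.0321) and −3.65 in LPS (SE 1.15, adjusted p = 0.0396). Few reads lie behind the treated values. In LPS+TSLP libraries there were at most 4 counts of each gene, and in LPS libraries at most 9 of Ighv3-8 and 6 of Ighv2-3. Vehicle libraries held 12 to 170 counts of Ighv3-8 and 20 to 39 of Ighv2-3. Both genes thus reached the minimum for testing through Vehicle alone, and their calls are not evidence by themselves. How many other called genes depended on Vehicle to be tested was not counted. In LPS against Vehicle the call was lost in 4 of 22 alternatives for Igkv4-59, 7 of 22 for Igkv8-27, 7 of 21 for Ighv3-8 and 8 of 22 for Ighv2-3.

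The other genes called in LPS+TSLP against Vehicle were Ighv1-85, Igkv4-57, Ighv8-12, Ighv1-20, Ighv9-3, Igkv8-24, Igkv6-15 and Ighv1-9, with log2 values from −5.49 (Ighv1-20) to −2.29 (Igkv6-15). In LPS against Vehicle they ran from −3.28 (Ighv1-20) to −0.89 (Igkv6-15), none of them called. The LPS+TSLP call was lost in 10 of 22 alternatives each for Igkv8-24, Igkv6-15 and Ighv1-9, with Igkv8-24 at −1.39 without Vehicle replicate 1, in 5 of 22 for Ighv9-3 and 5 of 21 for Ighv1-20, and in 2 or 3 for Ighv1-85, Igkv4-57 and Ighv8-12. Among the genes called in both comparisons it was lost in 4 for Ighv2-3, 3 each for Igkv4-59 and Igkv8-27, and 1 for Ighv3-8. The groups of the 8 genes did not overlap in LPS+TSLP against Vehicle. For 7 of the 13 V genes called there (Ighv1-20, Ighv1-85, Ighv3-8, Ighv9-3, Igkv4-57, Igkv8-24 and Igkv8-27), over 50% of the CPM summed over the libraries lay in 1 Vehicle library, and for 2 of the 5 called in LPS against Vehicle (Ighv3-8 and Igkv8-27). Leaving out Vehicle replicate 1 brought the members called to 3 in each comparison, and leaving out Vehicle replicate 2 to 5 in LPS+TSLP and 3 in LPS, both against Vehicle. Without LPS replicate 1, LPS against Vehicle had 2, and without LPS+TSLP replicate 2 or 3, LPS+TSLP against Vehicle had 4 or 8. Without LPS+TSLP replicate 1 the counts were 13 and, for LPS against Vehicle, 11, and without Vehicle replicate 3 they were 16 and 10. Calls over all genes moved too. In LPS+TSLP against Vehicle they were 2.93 and 2.96% without Vehicle replicates 1 and 2, and 6.12 and 5.98% without LPS+TSLP replicates 2 and 3. In LPS against Vehicle they were 9.44 and 10.4% without Vehicle replicates 1 and 2, and 14.3% without LPS replicate 1. Without LPS+TSLP replicate 1 they were 19.3 and 31.9%, and without Vehicle replicate 3 13.7 and 21.5%.

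**Figure D4:**
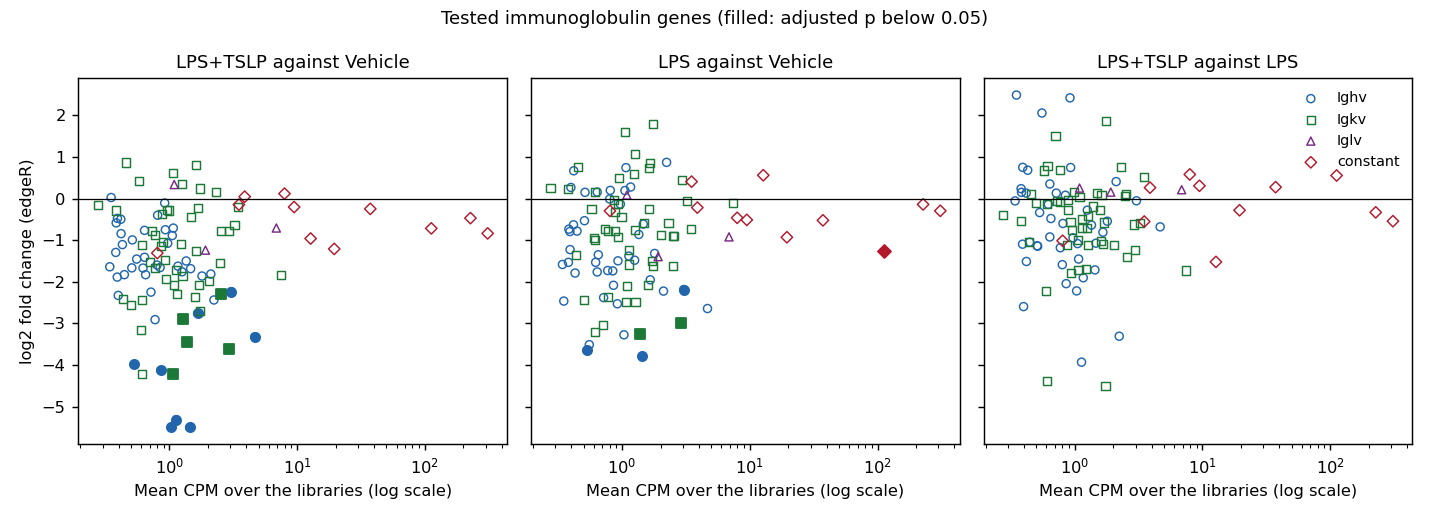
The log2 fold change (edgeR) of the 106 tested genes against their mean CPM on a log axis, 1 panel per comparison, with shapes for the kind of gene and filled marks for an adjusted p under 0.05. The constant genes lie between −1.52 and 0.58, the V genes reach −5.50 in LPS+TSLP against Vehicle and −3.79 in LPS against Vehicle, and no mark is filled for LPS+TSLP against LPS.

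The leading V gene differed between libraries of a group, and a few genes led in several libraries. Among heavy chain V genes the most counted was Ighv1-26 in LPS+TSLP replicates 1 (15.1%) and 2 (8%), Ighv1-64 in replicate 3 (7.29%) and Ighv9-3 in replicate 4 (6.54%). In LPS replicates 1 to 3 it was Ighv1-72 (14.3%), Ighv1-81 (18.2%) and Ighv14-4 (12.5%). In Vehicle replicates 1 to 3 it was Ighv9-3 (21%), Ighv5-9 (12.7%) and Ighv1-26 (8.78%). These are shares of the library's Ighv counts, which numbered 73, 225, 796 and 612 in LPS+TSLP, 406, 1017 and 697 in LPS, and 2203, 1948 and 1446 in Vehicle. The share of 15.1% in LPS+TSLP replicate 1 rests on 11 counts (95% exact binomial interval 7.77 to 25.4%).

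Some leading genes were far lower in the other libraries of their group. Ighv1-81 had 185 counts (10.5 CPM) in LPS replicate 2, 2.71 CPM in replicate 3 and 0 in replicate 1, against at most 0.851 CPM in LPS+TSLP and 0.681 to 3.94 CPM in Vehicle. Ighv9-3 had 463 counts (26.4 CPM) in Vehicle replicate 1 but 3.21 and 6.64 CPM in the other Vehicle libraries, with 0.309 to 2.43 CPM in LPS+TSLP and 0.336 to 4.1 CPM in LPS. Ighv5-9 had 247 counts (13.4 CPM) in Vehicle replicate 2 and 0.457 and 2.78 CPM in replicates 1 and 3, and was at or below 0.555 CPM in every treated library. Ighv1-64 and Ighv1-55, also among the 5 Ighv genes with the highest mean, ranged over 0 to 3.22 CPM in LPS+TSLP, 0 to 2.96 CPM in LPS and 2.23 to 7.62 CPM in Vehicle.

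In the kappa locus the leading genes also differed between libraries. Igkv10-96 led in LPS+TSLP replicates 3 (8.33%) and 4 (8.59%), Igkv14-111 in replicate 2 (6.16%) and Igkv1-135 in replicate 1 (9.56%, 13 counts). Igkv8-21 led in LPS replicate 1 (16.4%), and Igkv1-117 in LPS replicates 2 (18.2%) and 3 (12%). In Vehicle, Igkv1-117 led in replicate 1 (17.8%), Igkv4-80 in replicate 2 (11.4%) and Igkv3-4 in replicate 3 (7.46%). Igkv4-80 had 252 counts (13.7 CPM) in Vehicle replicate 2 and at most 0.228 CPM in the other Vehicle libraries, with at most 0.912 CPM in LPS+TSLP and 0.228 CPM in LPS. Igkv8-21 had at most 0.278 CPM in LPS+TSLP, 8.68, 3.53 and 0.498 CPM in LPS, and 3.03, 0.0544 and 0.851 CPM in Vehicle. Its unadjusted p of 0.00281 between LPS+TSLP and LPS (edgeR, log2 −4.51, SE 1.19) came to an adjusted p of 0.589. Igkv1-117 had 0.618, 2.16, 5.89 and 3.34 CPM in LPS+TSLP, 3.08, 19.4 and 7.09 CPM in LPS, and 26.8, 3.76 and 2.21 CPM in Vehicle, while its close copy Igkv1-110 stayed between 0.742 and 6.72 CPM in all libraries. Igkv10-96 and Igkv6-23, also among the 5 Igkv genes with the highest mean, ranged over 0.124 to 8.05 CPM in LPS+TSLP, 1.4 to 6.72 CPM in LPS and 1.14 to 5.44 CPM in Vehicle, and all groups overlapped for both.

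Counted over all 143 V genes, 26 (18.2%) had more than 50% of their summed CPM in 1 library. Among 8972 other genes with summed counts in the same range (21 to 1309) this held for 2.21%, and among the 11 constant genes for 0. Of the 26, 11 peaked in Vehicle replicate 1, 5 in Vehicle replicate 2, 4 in Vehicle replicate 3, 2 each in LPS+TSLP replicate 3 and LPS replicate 3, and 1 each in LPS replicates 1 and 2. The highest was Igkv5-37, with 36 of its 39 counts in Vehicle replicate 3, followed by Igkv4-80. Igkv5-37 passed the minimum of 20 counts only through that library. So did, among others, Ighv1-36 (25 of 30 counts in LPS+TSLP replicate 3) and Igkv12-38 (20 of 29 in Vehicle replicate 3). For such genes the concentration follows in part from the selection. The other genes were matched on the range of summed counts and not on its distribution, so the shares are a description.

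In the diversity of V gene use the groups overlapped for Ighv in the effective number and the thinned number of genes. The unthinned number of Ighv genes was higher in every Vehicle library than in every treated one. For Igkv some measures overlapped and others did not. The effective number of V genes (the number of equally used genes that would give the same Shannon entropy) was 16.6, 32.4, 42.9 and 45.4 for Ighv in LPS+TSLP, 26.5, 32.7 and 33.6 in LPS, and 28.3, 35 and 40.4 in Vehicle. For Igkv it was 23.2, 40.5, 39.1 and 41 in LPS+TSLP, 31.3, 34.3 and 32.1 in LPS, and 32.7, 40.5 and 43.2 in Vehicle. Thinned to 73 Ighv counts, the number in the poorest library, 20 to 36.7 genes are expected in LPS+TSLP, 27.6 to 31.7 in LPS and 29.2 to 34 in Vehicle. Thinned to 136 Igkv counts, 30, 43.8, 43.5 and 45 genes are expected in LPS+TSLP, 39, 42.4 and 39 in LPS, and 42, 44.3 and 44.9 in Vehicle. At 666 Igkv counts, which leaves out LPS+TSLP replicate 1, 61, 62.8 and 63 are expected in LPS+TSLP, 56.9, 60.7 and 58.6 in LPS, and 62, 62 and 63.1 in Vehicle. At that depth every LPS library lay below every other library, though by little for LPS replicate 2, and no test was made. The most counted Igkv gene took 6.16 to 9.56% in LPS+TSLP, 12 to 18.2% in LPS and 7.46 to 17.8% in Vehicle, so LPS lay above LPS+TSLP and overlapped Vehicle. With no thinning, 20 to 65 Ighv genes had a count in LPS+TSLP, 44 to 62 in LPS and 66 to 68 in Vehicle, from 73 to 796, 406 to 1017 and 1446 to 2203 Ighv counts in those groups. The Ighv1 family held 55.4% of all Ighv counts, with 53.4 to 62.6% in LPS+TSLP, 52.2 to 70.8% in LPS and 42.2 to 61.4% in Vehicle.

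**Figure D5:**
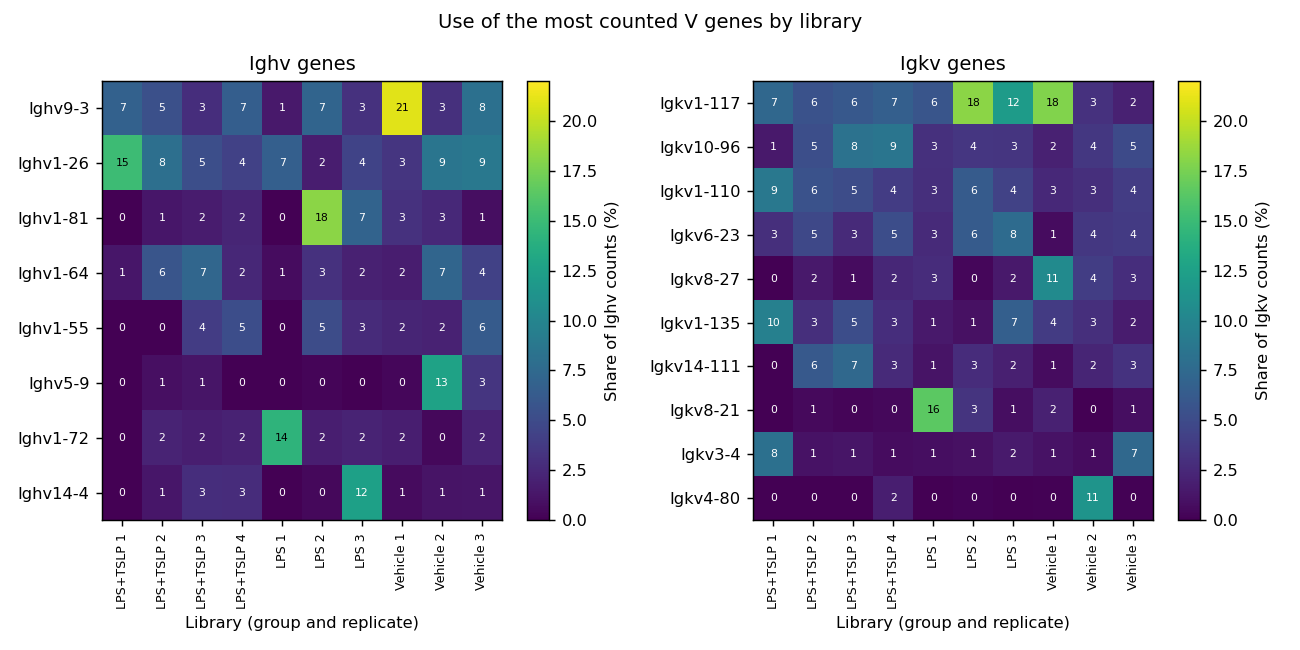
Share of each locus' V counts, in percent, taken by the most counted V genes (rows, ordered by mean CPM) in each library (columns), with the value in each cell. Bright cells sit mostly in single columns, such as Ighv9-3 in Vehicle replicate 1 (21%), Ighv1-81 in LPS replicate 2 (18.2%) and Igkv8-21 in LPS replicate 1 (16.4%).

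Other genes of the B lineage put these values beside the cells that make antibody. Of 24 B cell genes tested in LPS against Vehicle, 6 fell (Cd22, Fcmr, Cxcr5, Ccr6, Fcrla and Bach2), 1 rose (Ebf1) and 17 did not pass, with a median log2 fold change of −0.63, where 24.9% of all genes were called and 10.7% called lower. Fcmr, a receptor for IgM, had 7.73, 10.5 and 7.47 CPM in LPS and 26.6, 24.9 and 13.8 CPM in Vehicle (log2 −1.28, SE 0.32, adjusted p = 0.0158). Cd22, an inhibitory B cell receptor, had 6.83, 15.5 and 9.36 CPM in LPS and 34.8, 28.4 and 18 CPM in Vehicle (−1.30, SE 0.36, adjusted p = 0.0239), and Bach2, a repressor of plasma cell formation, had 6.66, 14.3 and 10.1 CPM in LPS and 25.4, 21.7 and 19 CPM in Vehicle (−1.03, SE 0.26, adjusted p = 0.0161). The number of B cell genes that fell was 0 without Vehicle replicate 1 or 2, 1 without LPS replicate 1 or 3, and 0 to 7 over all fits without 1 library. Of all genes 9.44 and 10.4% were called without Vehicle replicates 1 and 2, and 14.3 and 22% without LPS replicates 1 and 3. The summed level of the 24 was 338 to 556 CPM in LPS+TSLP, 308 to 458 CPM in LPS and 422 to 566 CPM in Vehicle. In LPS+TSLP against Vehicle 1 of the 24 rose (Ebf1) and 23 did not pass, with a median of −0.41.

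Of the 21 genes of plasma cells and antibody secretion, 4 rose and 1 fell in LPS against Vehicle, where 24.9% of all genes were called, a share near that of the list. Those that rose were all general secretory or elongation genes that other cells also express (Sec11c, Ell2, Ssr4 and Hsp90b1). The one that fell was Irf4, a transcription factor of activated B and plasma cells. Irf4 had 7.23, 4.49, 6.55 and 7.78 CPM in LPS+TSLP, 3.14, 5.46 and 5.59 CPM in LPS, and 17.8, 19.6 and 12.3 CPM in Vehicle. The log2 fold change was −1.31 for LPS+TSLP (SE 0.29, adjusted p = 0.0156) and −1.75 for LPS (SE 0.32, adjusted p = 0.00514), both against Vehicle. All treated libraries lay below all Vehicle libraries. In LPS+TSLP against Vehicle 2 of 21 rose (Ell2 and Hsp90b1) and 2 fell (Irf4 and Sdc1), where 14.2% of all genes were called. The call was lost in 9 of 22 alternatives for Sdc1, 3 for Hsp90b1, 2 for Irf4 and 1 for Ell2. Jchain itself was not called (log2 −1.01, SE 0.53, adjusted p = 0.205 for LPS+TSLP and −0.03, SE 0.57, adjusted p = 0.977 for LPS, both against Vehicle). With each library's GC trend removed Jchain was called in LPS+TSLP (log2 −2.46) and stood at −1.37 in LPS, not called.

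Of the genes of V gene recombination and the pre-B cell, some were near 0 and others were not. Rag2, a subunit of the recombinase, had at most 0.0584 CPM and Igll1, a surrogate light chain gene, at most 0.175 CPM in any library. Vpreb3 had 29.7, 10.3, 11.2 and 6.63 CPM in LPS+TSLP, 12.3, 5.12 and 6.37 CPM in LPS, and 16.3, 10.8 and 8.45 CPM in Vehicle, highest in LPS+TSLP replicate 1. Lef1, Il7r and Erg, which other cells also express, ranged over 3.88 to 110.0 CPM. Of 11 tested germinal centre and switching genes, 2 rose in LPS against Vehicle (Fas and Mybl1), and 1 rose (Mybl1) and 3 fell (S1pr2, Msh6 and Polh) in LPS+TSLP against Vehicle. Of 4 tested recombination and pre-B genes, 1 rose in each, Il7r. Antibody receptors rose after LPS in 4 of 9 tested (Fcer1g, Fcgr4, Fcgr2b and Fcgr3) and after LPS+TSLP in 1, Fcer1g, the shared signalling chain. Pigr, which carries IgA and IgM across epithelium, had 486, 131, 219 and 315 CPM in LPS+TSLP, 451, 181 and 531 CPM in LPS, and 57.2, 388 and 322 CPM in Vehicle, with no call. Among 12 tested genes for B cell attraction and survival, Il4 rose and Cxcl12 fell in LPS against Vehicle, and none was called in LPS+TSLP against Vehicle. Beside the counts of these lists, 24.9% of all genes were called in LPS against Vehicle and 10.7% called lower. In LPS+TSLP against Vehicle 14.2% of all genes were called and 5.35% called lower.

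Of the other cell types, none of 12 T cell genes was called in any comparison. The summed neutrophil list was 171 to 1190 CPM in LPS+TSLP, 1660 to 2130 CPM in LPS and 384 to 1115 CPM in Vehicle, with 2 of 10 genes (Ly6g and Itgam) higher in LPS and 1 (Itgam) in LPS+TSLP, both against Vehicle. Of all genes 24.9% were called in LPS against Vehicle and 14.2% in LPS+TSLP against Vehicle. The 5 red cell and vessel genes summed to 619 to 2425 CPM in LPS+TSLP, 1564 to 4836 CPM in LPS and 2033 to 3292 CPM in Vehicle, and Alas2, a haem synthesis enzyme, was lower in LPS+TSLP than in Vehicle. The part of any of these in the immunoglobulin values was not tested.

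Across the 10 libraries the constant genes showed 2 patterns of level. On log2 CPM, Igha followed Igkc (Pearson r = 0.969), Ighg2b (0.943) and Jchain (0.969, the highest among 17033 other genes), while Ighm followed Ighd (0.849) but not Igha (0.081). The non-member genes most like Ighm were Fcrla (0.959), Prkcq (0.957), Fcmr (0.947), Lrrc4b (0.942) and Cd300lg (0.935). For Igkc they were R3hdm4 (0.965), 9530085L11Rik (0.962), Nr1h2 (0.949), Ccr7 (0.943) and Stk32c (0.937), with Jchain at 0.932. These correlations describe 10 libraries that share groups and, in LPS+TSLP replicate 1, an extreme point, so they carry no test.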

How the data were processed

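Total RNA of whole lung was extracted with Trizol and sequenced on an Illumina instrument, per the labels. The values deposited are raw counts of reads for each gene, made by the authors with CASAVA, HISAT2 and HTSeq 0.6.0 on GRCm38/mm10, per the submitters' processing notes. The annotation release and the strand setting are not given in the sources used here, so reads of overlapping or antisense genes cannot be told apart. How reads that match several V genes were counted is not given either. The counts are whole numbers, with 16175172 to 18374461 per library.

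Genes were chosen by name and summed count (at least 20). The members and the gene lists were chosen with earlier results of these data known. CPM is counts per 1000000 counts of a library. All 10 libraries entered 1 fit of 3 groups in edgeR 4.0.16 (R 4.3.3): filterByExpr kept 17139 genes, counts were scaled by TMM, and the robust quasi-likelihood test was two-sided with Benjamini-Hochberg adjustment over all 17139. The edgeR fit was run on simulated counts, and the steps for shares, ratios, diversity and concentration were not. Ratios and shares were computed from counts and carry no test. Shares have exact Clopper-Pearson 95% intervals. Sequences, positions and shared stretches come from GENCODE M21, which held 54495 (99.93%) of the identifiers, and 27 date-like symbols were replaced through their identifiers. Pearson correlations use log2 CPM with a prior count of 2.

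Named genes were all constant genes, the V genes with the highest mean CPM over the libraries (5 Ighv, 5 Igkv, 2 Iglv), up to 4 called genes per comparison and direction with the smallest adjusted p, the most counted V gene of each library, up to 4 genes with the smallest adjusted p per list, and the 5 genes most like Ighm and Igkc. Further called genes and the genes with counts concentrated in 1 library were named after their values were seen. The lists were B cell, plasma cell and antibody secretion, germinal centre and class switching, recombination and pre-B cell, antibody transport and Fc receptors, B cell attraction and survival, T cell, neutrophil, and red cell and vessel genes. Alternatives were other scalings and filters, DESeq2 1.42.0, limma-voom (limma 3.58.1), a fit of 2 groups alone, a replicate block, removal of each library's GC trend, and leaving out each library. Those on V per constant ratios, shares per kilobase and the lists without single libraries were chosen after seeing the data.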

Additional observations from a re-analysis of the deposited data

Results flagged for a closer look

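In LPS+TSLP, the only group of 4 libraries, 13 of 62 values checked had 1 library far from the other 3, by a gap above Dixon's critical value at 95%. Chance gives about 1 in 20 for untied values from a normal distribution, and many of these values are tied at 0, near it or not independent of each other. LPS+TSLP replicate 1 was the distant library in 10 of the 13. Its Igha share of heavy chain constant counts was 12.4%, against 60.4 to 65.4% in the other 3, its Ighm share 67.1%, against 19.4 to 24.1%, and its Ighd share 18.9%, against 7.77 to 9.49%. Its lambda share of light chain constant counts was 19.5%, against 9.12 to 10.4%. Its most counted Ighv gene took 15.1%, against 6.54 to 8%. In the kappa locus it had 30 V genes with a count, against 61 to 66, an effective number of 23.2, against 39.1 to 41, and of 22.8 without the most counted gene, against 39.9 to 42.2. Thinned to the lowest library's counts, 30 kappa V genes were expected in it, against 43.5 to 45. Igkv8-21 was at 0 CPM in it, against 0.233 to 0.278 CPM. This library had 13.1% mitochondrial counts and the fewest immunoglobulin counts (3921), and the part of either in these values was not tested.

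In the other 3 values a different library was distant. Ighd was at 56.4 CPM in LPS+TSLP replicate 3, against 28.2 to 32.9 CPM. Ighv1-20 was at 0.243 CPM in replicate 4 and Ighv8-12 at 0.467 CPM in replicate 2, with 0 in the other 3 libraries for both genes. Any count in 1 library beside 3 at 0 gives the highest possible ratio, so these 2 flags carry no weight.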

How the results depend on the processing

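Among the 58 named fold changes, 1268 alternative values were computed, of which 1095 kept their direction and their side of the threshold, 161 lost a call, 4 gained one and 8 reversed. Over the fits without 1 library, LPS against Vehicle ran from −0.34 to 0.11 for Igkc, from −0.32 to 0.99 for Ighg2c and from −0.36 to 0.17 for Jchain. Removing the GC trend moved Jchain most, to −1.37 in LPS against Vehicle and to −2.46, then called, in LPS+TSLP against Vehicle. The reversed values were these: Igkc in LPS against Vehicle gave 0.01 with the GC trend removed and 0.11 without LPS replicate 3, Ighg2c in LPS against Vehicle −0.32 without LPS replicate 3, and Jchain in LPS against Vehicle 0.09 without LPS replicate 2, 0.17 without LPS replicate 3 and 0.09 without Vehicle replicate 1. With both replicates numbered 1 of the treated groups left out, LPS+TSLP against LPS gave 0.22 for Igha and 0.19 for Igkc. The members called in LPS against Vehicle numbered 6 in the main fit and 2 to 11 when 1 library was left out. With no filter beyond 20 summed counts there were 10 (9 lower and 1 higher). DESeq2's Wald test gave 14, and a fit of the 2 groups alone 12. Of all genes these settings called 20.1, 32.1 and 29.8%, against 24.9%, and 9.44 to 31.9% when 1 library was left out. In LPS+TSLP against Vehicle the members called numbered 3 to 16 when 1 library was left out, against 13, and the share of all genes called was 2.93 to 20.5%, against 14.2%. In LPS+TSLP against LPS DESeq2's Wald test called 1 member (0.204% of all genes), against 0, and every fit without 1 library gave 0 members. The cause of these changes was not tested, other than the fewer samples or genes that a setting itself brings. With no thinning, the mean number of Ighv genes with a count was 47.8 in LPS+TSLP, 54.3 in LPS and 67 in Vehicle, and of Igkv genes 55.2, 63 and 67.3. The effective number of Igkv genes in LPS was 37.4 without the most counted gene, against 32.6.

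With the replicate number as a block, 5 members were called in LPS against Vehicle, 0 in LPS+TSLP against LPS and 11 in LPS+TSLP against Vehicle. Of all genes 26.2, 0 and 20.2% were called in these comparisons. Correlations between libraries of the same number ran from −0.344 to 0.405 and were over 0.1 in 3 of 9 pairs. LPS+TSLP with LPS gave 0.325, 0.405 and −0.104 for replicates 1, 2 and 3. These correlations use deviations from the means of small groups and were not compared with pairs of unlike number. They cannot settle whether libraries of the same number are paired. V genes with under 100 counts in all are limited by depth, and a group with a gene at 0 in a library allows up to 3 counts there.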
